A study of Mus musculus with 10 samples.

Results

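Interferon-induced genes are genes whose RNA rises when an interferon binds its receptor on a cell. A list of 45 such mouse genes was followed on 10 microarrays, and 40 of the 45 were measured, of 19937 named genes on the array. The list was set by gene symbol. A gene counted as measured where a probe set, the group of probes that reads 1 transcript, carried its symbol and no other, and each of the 40 had 1 such probe set. The probe sets of Isg15, Gbp2, Igtp and Ifi47 carry the symbol of a second gene as well, and Ifi44 had no probe set with 1 symbol, so that these 5 genes were not counted.

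RNA came from cells grown out of bone marrow (BM) of C57BL6/N mice, either wild type (B6) or without the gene of secretory leukoprotease inhibitor (Slpi-/-), in cytokine cultures that give BM-derived basophils (BMBs), mast cells or BM-derived eosinophils (BMEos). Each condition had 1 array. B6 and Slpi-/- BMBs were either unstimulated or loaded for 1 h with anti-TNP-IgE and then given the antigen TNP-ovalbumin for 12 h. B6 and Slpi-/- BMEos were either unstimulated or given lipopolysaccharide (LPS) for 3 h, and mast cells of both genotypes were unstimulated. BMBs and mast cells had grown with interleukin 3, and BMEos with Flt3 ligand, stem cell factor and interleukin 5. Per the methods, magnetic beads then served to select BMBs as c-kit- DX5+ cells. The age and sex of the mice, and how many mice or cultures stand behind an array, are not given in the sources used here. The p-values therefore do not measure the spread between cultures. In the fit with LPS and IgE terms, their error rests on how far the genotypes differed in the effects of LPS and of IgE. In the fit for cell types it rests on how far the genotype difference varied between cell types.

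The values are log2 signals, so that a difference of 1 is a doubling. A signal was above background when it exceeded the 95th percentile of 1027 olfactory receptor genes on the same array, which lay between 5.56 and 5.78. Prg2 and Epx, granule genes of eosinophils, read 10.67 or more on the BMEos arrays and 5.58 or less on the others, Mcpt8, a basophil protease gene, read 12.72 or more on the BMB arrays, and Cma1, a mast cell chymase gene, read 11.99 and 12.19 on the mast cell arrays. Slpi itself fell below its B6 level in Slpi-/- BMBs and BMEos in limma, whereas in mast cells it read 6.53 in B6 and 6.47 in Slpi-/- cells and checks no label there. One difference between arrays touches the LPS results. Xist, transcribed from the inactive X chromosome, gave 9.72 and 9.66 on the arrays of LPS-treated BMEos, whereas the other 8 gave at most 4.90. Eif2s3y, on the Y chromosome, gave 3.22 and 3.54 there, against 7.62 or more elsewhere. By these genes the cells with LPS were not of the same sex as those without it, and LPS and this difference between the cells cannot be told apart. In each pair of Slpi-/- and B6 arrays the genes matched.

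Type I and type III interferons act through receptor-bound JAK kinases, which phosphorylate transcription factors, STAT2 among them. With IRF9 these form the complex ISGF3, which binds a DNA element called the interferon-stimulated response element (ISRE), whereas the response to interferon gamma runs through GAS elements. The induced genes encode proteins that bind or cut viral RNA, sense it, mark proteins with ubiquitin or ISG15, disrupt the vacuoles of microbes, or damp the receptor signal. In macrophages and dendritic cells, LPS starts the same program through TLR4, the adaptor TICAM1 and IRF3, by way of secreted interferon beta.

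The promoters of 4 genes are shown, picked because each holds the core of an ISRE in the 130 bases before its transcript start. They are taken from RefSeq (mouse build GRCm38.p6) and written 5′ to 3′ on the strand of the gene. Capitals mark the motif GAAANNGAAA, searched on both strands, so that it can also read as its reverse complement.
Rsad2: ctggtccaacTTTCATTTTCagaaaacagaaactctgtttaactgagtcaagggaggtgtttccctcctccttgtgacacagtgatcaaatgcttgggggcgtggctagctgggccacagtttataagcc
Ifit1: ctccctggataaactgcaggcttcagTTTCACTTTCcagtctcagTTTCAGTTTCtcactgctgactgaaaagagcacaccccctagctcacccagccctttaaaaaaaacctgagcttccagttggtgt
Slfn8: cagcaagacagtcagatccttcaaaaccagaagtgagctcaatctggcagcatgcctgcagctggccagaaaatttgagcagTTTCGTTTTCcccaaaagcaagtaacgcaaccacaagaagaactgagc
Trim30a: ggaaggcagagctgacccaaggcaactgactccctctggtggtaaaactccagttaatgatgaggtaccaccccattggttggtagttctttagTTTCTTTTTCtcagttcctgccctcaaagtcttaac
The Rsad2 stretch lies at chr12:26456453-26456582 on the minus strand, with the motif starting 120 bases before the start. The Ifit1 stretch lies at chr19:34640759-34640888 on the plus strand and holds 2 matches, which start 104 and 85 bases before it. The Slfn8 stretch lies at chr11:83020811-83020940 on the minus strand, with the match at 48 bases, and the Trim30a stretch at chr7:104465194-104465323 on the minus strand, with the match at 36 bases. RefSeq promoters were found for 36 of the 45 genes, 31 of them measured, and in the 250 bases before a start 15 of the 36 genes (41.7%) held the motif at least once, each gene being counted once however many matches it had. Of all 27025 genes in the table, 936 (3.46%) did. Cmpk2 and Irf7, among the largest measured rises below, did not hold it, and no promoter was found for Usp18. Trim30a has 2 promoters, of which 1 held it. The GAS-type motif TTCNNNGAA, which is its own reverse complement, was found in 6 of the 36 genes (16.7%) and in 8.13% of all genes. These matches describe letters and not binding.

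After 3 h of LPS, interferon-induced genes were higher in BMEos of both genotypes, on the arrays that also differed in Xist. Of the genes measured above background on both sides, the largest rises were in Cmpk2, a mitochondrial nucleotide kinase, Usp18, which removes ISG15 from proteins and damps the receptor signal, and Irf7. Rsad2, an antiviral radical enzyme, was below background without LPS and had a lower bound above these. All 40 measured genes had a higher signal with LPS in B6 and in Slpi-/- BMEos, a pattern of 40.8% of all named genes (lower in both, 31.8%). Their median LPS difference was 2.23 in B6 and 2.80 in Slpi-/- BMEos, against 0.04 and 0.03 over all named genes. Over the 25 genes above background on all 4 BMEos arrays it was 2.34 and 2.72, against -0.02 and -0.03 over the 10494 such genes. In limma, in a fit of all 10 arrays with 1 LPS term for both genotypes, 38 genes were tested and 38 passed as higher (Benjamini-Hochberg adjusted p under 0.05 over 13571 genes), while 12.7% of all tested genes passed as higher and 16.2% as lower. Of these 38 genes, 31 were above background on at least 1 of the 8 arrays without LPS. The other 7 (Ifit1, Ifit3, Rsad2, Rtp4, Gbp3, Gbp5 and Slfn5) were above it with LPS only and entered the test through those arrays, so that they had to differ, and Ifit2 and Mx2 were above it on no array. For 39 genes, both signals with LPS exceeded all 8 without, a pattern of 13.8% of all named genes. Ifitm3 was the exception.

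**Figure D1:**
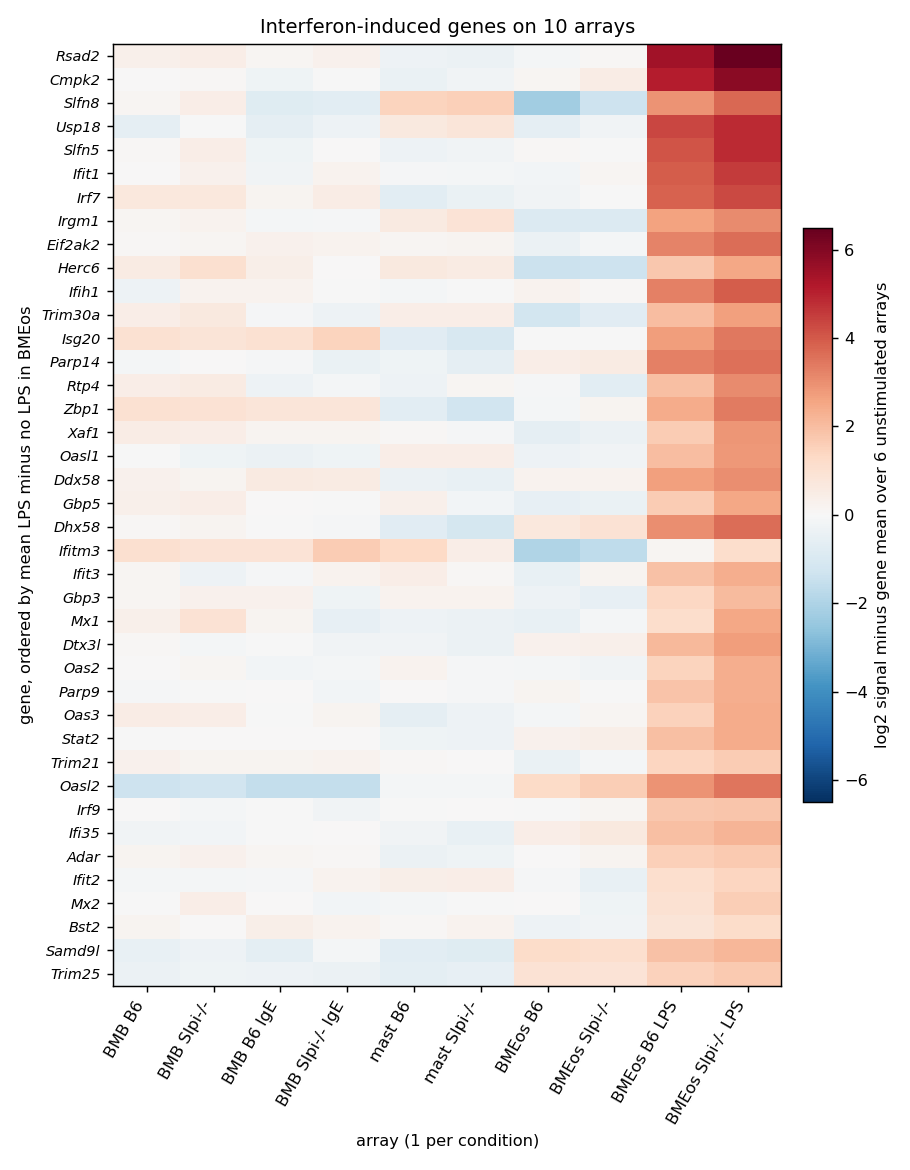
Log2 signal of the 40 measured genes (rows, ordered by the mean LPS difference in BMEos) on the 10 arrays (columns), each as the difference from the gene's mean over the 6 unstimulated arrays. The 2 columns with LPS hold the 2 highest values of 39 genes, whereas Ifitm3, lowest in unstimulated BMEos, reached values near those in BMBs and mast cells.

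Rsad2 and Cmpk2 lie next to each other in the genome. Rsad2 read 5.06 (B6) and 5.23 (Slpi-/-) without LPS, both below background, and 10.65 and 11.61 with LPS, at least 44.1-fold higher against the background, which serves as the lower bound wherever a gene lay under it. Cmpk2 read 5.69 and 6.07 without and 10.68 and 11.48 with LPS (36.7-fold, limma log2 difference 5.20 ± 0.13 SE, adjusted p = 1.09e-05, n = 2 arrays each). The groups lay far apart for both. Ifit1, whose protein binds viral RNA that lacks a host cap mark, went from 4.42 and 4.70 to 8.50 and 9.10, at least 8.77-fold. Ifit3 went from 4.26 and 4.91 to 6.64 and 7.09. Its relative Ifit2, with 3.91 and 3.51 without and 5.07 and 5.36 with LPS, stayed under the background of every array and was not tested.

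The Mx genes encode dynamin-like GTPases that trap viral nucleocapsids. Mx1 read 4.33 (B6) and 4.70 (Slpi-/-) without LPS and 5.95 and 7.32 with it, at least 1.96-fold higher. Mx2, under background throughout, read 3.99 and 3.68 without LPS and 4.93 and 5.58 with it. The Oas enzymes make the short RNA that activates RNase L, and all 4 Oas and Oas-like genes rose. Oas2 went from 5.74 and 5.67 to 7.34 and 8.23. Oas3 went from 5.76 and 5.97 to 7.37 and 8.31. The Oas-like genes encode relatives of these enzymes. Oasl1 went from 6.32 and 6.45 to 8.66 and 9.51. Oasl2 went from 7.95 and 8.29 to 9.59 and 10.18. Isg20, an exonuclease gene, went from 7.28 and 7.30 to 10.05 and 10.72 (8.56-fold). Ifitm3 and Bst2 encode membrane proteins that block the entry and the release of viruses. Ifitm3 rose from 5.58 and 5.87 to 7.64 and 8.68 (5.4-fold), against 7.94 to 9.20 in BMBs and mast cells. Bst2 rose less, from 7.15 and 7.24 to 8.30 and 8.65 (2.44-fold).

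Sensors of foreign nucleic acid rose together with these effectors. Ifih1 (MDA5) and Ddx58 (RIG-I) encode RNA helicases that signal through MAVS. Ifih1 read 5.94 (B6) and 5.77 (Slpi-/-) without LPS and 8.99 and 9.65 with it (11-fold). Ddx58 was already high, at 8.66 and 8.68, and reached 11.11 and 11.48 (6.15-fold). Dhx58 (LGP2), which tunes both helicases, rose from 6.80 and 7.04 to 9.16 and 9.75. Zbp1 encodes a sensor of Z-form nucleic acid that can start necroptosis. It read 6.80 and 7.07 without LPS and 9.31 and 10.31 with it. Eif2ak2 (PKR), a kinase that stops translation on double-stranded RNA, rose from 5.78 and 6.07 to 9.42 and 9.81 (12.9-fold). Adar, which edits adenosine in double-stranded RNA and so limits these sensors, rose from 7.62 and 7.76 to 9.15 and 9.27 (2.88-fold), and its difference was nearly the same in both genotypes.

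Of the 3 transcription factor genes, Irf7, which amplifies interferon alpha production, rose most. It read 6.13 and 6.30 without LPS and 10.16 and 10.64 with LPS (18.3-fold, 4.19 ± 0.13, adjusted p = 1.27e-05, limma). The genes of 2 ISGF3 subunits had smaller folds. Stat2 rose from 8.04 and 8.14 to 9.73 and 10.16 (3.62-fold). Irf9 rose from 8.23 and 8.37 to 9.99 and 10.06 (3.31-fold). Usp18 read 6.92 and 7.26 without and 11.83 and 12.33 with LPS (31.7-fold, 4.99 ± 0.12, adjusted p = 9.39e-06). The negative regulator thus rose more than either ISGF3 subunit on the log2 scale.

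Guanylate-binding and immunity-related GTPases attack the vacuoles of microbes. Irgm1, which regulates the others, rose from 6.45 and 6.48 to 9.95 and 10.40 (13.1-fold). Gbp3 went from 4.76 and 4.54, below background, to 6.41 and 7.15. Gbp5, which also aids the inflammasome, went from 3.89 and 4.02, below background, to 6.10 and 6.97. The Schlafen genes, which restrain growth and viral translation, showed some of the widest ranges. Slfn8 read 3.16 (B6) and 4.07 (Slpi-/-) without LPS, both below background and the lowest of the 10 arrays, and 8.33 and 9.14 with LPS, the highest (at least 8.4-fold, adjusted p = 5.88e-06, limma). Slfn5 went from 5.01 and 4.94, below background, to 9.02 and 9.81 (at least 13.4-fold).

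Genes of protein-modifying enzymes and the remaining genes rose as well. Among the TRIM ubiquitin ligases, Trim30a rose from 7.07 and 7.53 to 10.27 and 10.95 (9.91-fold). Trim21, a receptor for antibody-bound virus, rose from 6.99 and 7.34 to 8.87 and 9.09. Trim25, which activates RIG-I, had the smallest LPS difference of the 38 tested genes, from 9.16 and 9.10 to 9.74 and 9.94 (0.71 ± 0.11), and its adjusted p was 0.0601 in the fit without the Slpi-/- BMEos pair. Parp9 and Dtx3l encode partners in ADP-ribosylation and ubiquitination, and share a promoter region. Parp9 rose from 7.69 and 7.52 to 9.37 and 9.87. Dtx3l rose from 8.22 and 8.27 to 10.02 and 10.63. Parp14, another ADP-ribosyltransferase gene, rose from 7.73 and 7.84 to 10.58 and 10.87 (7.68-fold). Herc6, the main ligase for ISG15 in mice, was below background without LPS. It went from 5.01 and 5.03 to 8.16 and 8.91 (at least 7.32-fold). Xaf1, which promotes apoptosis, went from 5.40 and 5.58, below background, to 7.64 and 8.85. Rtp4 and Ifi35 have less settled roles in the antiviral response. Rtp4 went from 4.56 and 3.98, below background, to 6.61 and 7.73. Ifi35 rose from 8.37 and 8.58 to 9.89 and 10.16. Samd9l, a restriction factor that was already at 9.72 and 9.64, rose to 10.46 and 10.71 (1.87-fold).

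Over the tested genes of 5 lists upstream of these targets, the median LPS difference ran from -0.06 to 0.37. Values in parentheses after these genes are limma log2 differences, LPS minus none. The probe set of Ifnb1, the gene of interferon beta, read between 3.78 and 4.55 on all 10 arrays, including 4.30 and 4.54 with LPS, and was above background on none. Of 21 listed interferon genes, 15 were measured and 6 tested, and Ifnab and the type III gene Ifnl2 (0.64) passed as higher. Of the 6 receptor genes, Ifngr2 (1.05), Il10rb (0.72) and Ifnar1 (0.62) passed as higher and Ifnar2, Ifngr1 and Ifnlr1 did not pass. Of 10 tested JAK, STAT and IRF genes outside the 45, Tyk2 (1.18), Irf1 (1.15) and Irf5 (1.14) rose and Stat3 (-0.39) fell. Of 9 negative regulators of cytokine signalling, Socs1 (0.61), Ptpn6 (0.65) and Ptpn11 (0.64) rose and Trim24 (-0.44) fell. Of 12 tested genes of the inducing pathways, the kinase gene Ikbke (3.30), Tlr9 (2.30), the DNA sensor gene Cgas, the LPS co-receptor gene Cd14 and Myd88 (0.71) rose, and Tlr4, the LPS receptor gene, fell (-0.63). Ifnab, Cgas and Cd14 were above background with LPS only, so that they too had to differ. Cgas read 4.36 and 4.76 without and 6.23 and 6.95 with LPS, and Cd14 5.00 and 5.45 without and 6.73 and 6.63 with it. Of 34 tested interferon-induced genes from a further list of 50, 28 passed as higher and 0 as lower, with a median log2 difference of 1.55. Cxcl10, a chemokine gene, rose by 6.61, from 5.59 and 5.78 to 11.94 and 12.64. Cxcl9, classed as a target of interferon gamma, read 5.51 and 5.52 with LPS and did not pass. It was below background in BMEos with and without LPS, so that its signals there give no level.

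Genes listed as markers of other cells also differed between the arrays with and without LPS. In whole cultures, fewer cells of a type and less RNA per cell cannot be told apart. Of 5 tested markers of plasmacytoid dendritic cells, 3 passed as higher with LPS, among them Siglech, which went from 5.85 and 5.47 to 6.49 and 6.50. The mean log2 signal of the 6 measured markers was 5.65 and 5.64 without and 6.17 and 6.20 with LPS. Of 8 tested monocyte and macrophage markers, 4 passed as higher, C1qa through the LPS arrays only, and the mean of the 10 measured went from 6.77 and 6.92 to 7.10 and 7.13. Of 7 tested markers of conventional dendritic cells 2 passed as higher and 1 as lower, and of 9 neutrophil markers 0 and 2. The part of these marker shifts in the LPS difference of the interferon-induced genes was not tested.

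With LPS, all 40 genes were higher in Slpi-/- than in B6 BMEos. The median difference was 0.61, from 0.07 for Irf9 to 1.37 for Mx1, with 1 array per genotype and no replicate check. Of the 38 genes above background on either array, 22 were at least 0.5 higher and 0 at least 0.5 lower, against 1.35% and 1.36% of 12460 named genes above background. The 5 largest differences were in Mx1, Xaf1, Rtp4, Ifitm3 and Zbp1. Mx1 read 5.95 (B6) and 7.32 (Slpi-/-). Xaf1 read 7.64 and 8.85, and Rtp4 6.61 and 7.73. Ifitm3 read 7.64 and 8.68, a difference of 1.04. For Zbp1 it was 0.99, from 9.31 to 10.31. For the genes with the widest LPS rises it was 0.96 for Rsad2, 0.81 for Slfn8, 0.80 for Cmpk2 and 0.50 for Usp18. At the low end stood Irf9, Adar (0.12), Trim25 (0.20), Trim21 (0.22) and Samd9l (0.26).

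Unstimulated BMEos showed a smaller difference of the same sign for most of these genes. Of the 40, 30 were higher in Slpi-/- than in B6 BMEos, with a median of 0.14, and of the 27 above background 0 were at least 0.5 higher or lower (all genes, 0.678% and 0.713%). Trim30a read 7.07 in B6 and 7.53 in Slpi-/- cells, Cmpk2 5.69 and 6.07, and Trim21 6.99 and 7.34. Slfn8 had the widest difference, 0.92, below background, and Rtp4 the lowest, -0.57, also below background. The same 30 genes were higher in Slpi-/- cells in both BMEos pairs and 0 were lower in both (all named genes, 25.9% and 26.1%). Both counts follow from the unstimulated pair, because all 40 genes were higher with LPS. In the unstimulated pair alone, 51.3% of all named genes were higher.

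**Figure D2:**
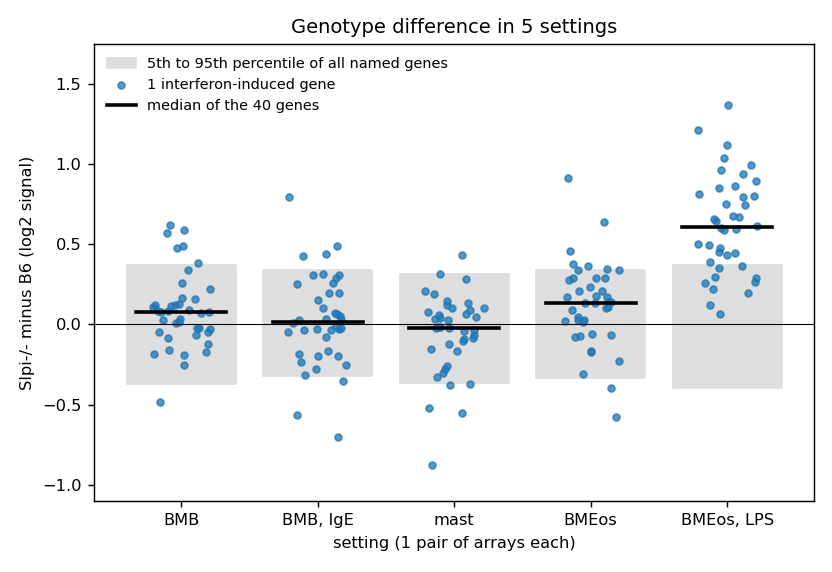
Slpi-/- minus B6 in log2 signal for each of the 40 measured genes (points) in the 5 settings, with their median (bar) and, in grey, the 5th to 95th percentile of all named genes. With LPS, all points lie above 0 and the median of 0.61 lies above the grey band, whose top is at 0.37, whereas in the other 4 settings the median lies within it.

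Over both BMEos pairs, the genotype difference did not pass for any of the 38 tested genes in limma. The lowest adjusted p was 0.19, for Slfn8, which was below background without LPS (0.87 ± 0.10), and among all 13571 genes 0% passed as higher and 0.00737% as lower, which is Slpi alone. By unadjusted p under 0.05, 21 of the 38 genes were higher and 0 lower, against 360 and 425 of all genes. The methods' t-test on the same pairs called 0, but with only 2 pairs it could hardly pass any gene after adjustment. Further estimates were 0.87 ± 0.34 for Mx1, 0.70 ± 0.22 for Xaf1, 0.63 ± 0.17 for Zbp1 and 0.66 ± 0.26 for Ifitm3, of which Mx1 and Xaf1 were below background without LPS. In this fit, a genotype difference that depends on LPS counts as error, because the 2 BMEos pairs are its replicates.

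The LPS difference itself was larger in Slpi-/- than in B6 BMEos for 35 of the 40 genes (87.5%, against 48.7% of all named genes), by a median of 0.42. For genes below background without LPS these differences rest on signals that give only a bound. Of the 25 genes above background on all 4 BMEos arrays, 22 had the larger difference in Slpi-/- cells (88%, against 49.5% of the 10494 such genes), by a median of 0.33. Among these 25 it was larger by the most in Ifih1, at 3.88 in Slpi-/- and 3.05 in B6 BMEos. Oas3 followed with 2.33 and 1.60, and Oasl1 with 3.06 and 2.34. Without LPS, Ifih1 read 5.94 (B6) and 5.77 (Slpi-/-), and Oas3 5.76 and 5.97. Both genes thus lay close to the backgrounds of those arrays, 5.65 and 5.68. The 5 genes with a smaller difference in Slpi-/- BMEos were Ifit3, Trim21, Slfn8, Irf9 and Adar. In a limma fit with a genotype by LPS term, added after the data were seen and left with 1 residual degree of freedom, 0 of 38 genes passed. By unadjusted p under 0.05, 12 of the 38 had the larger LPS difference in Slpi-/- cells and 0 the smaller, against 1.89% and 1.69% of all 13571 genes. The error of that fit comes from how far the genotypes differed in the IgE effect on BMBs. Other genes that rose with LPS did not share the direction to this extent. Among the 1686 other genes that passed as higher with LPS, 52.4% had a larger LPS difference in Slpi-/- cells and 48.8% were higher there with LPS, with a median difference of -0.01, against 86.8% and 100% of the 38. Tnf, a cytokine gene, read 11.16 (B6) and 11.05 (Slpi-/-) with LPS, and Nfkbia, a target of NF-κB, 11.10 and 11.02. Means of the marker lists in that pair were 7.10 in B6 and 7.13 in Slpi-/- cells for monocytes and macrophages, Adgre1 included. For plasmacytoid dendritic cells they were 6.17 and 6.20, and for conventional ones 6.35 and 6.39. For neutrophils they were 7.23 and 7.34, and for lymphocytes 4.81 and 4.99. Single markers differed both ways, with the neutrophil markers Retnlg at 9.37 in B6 and 10.05 in Slpi-/- cells and Ngp at 11.02 and 10.52. The part of other cells in the genotype difference was not tested.

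**Figure D3:**
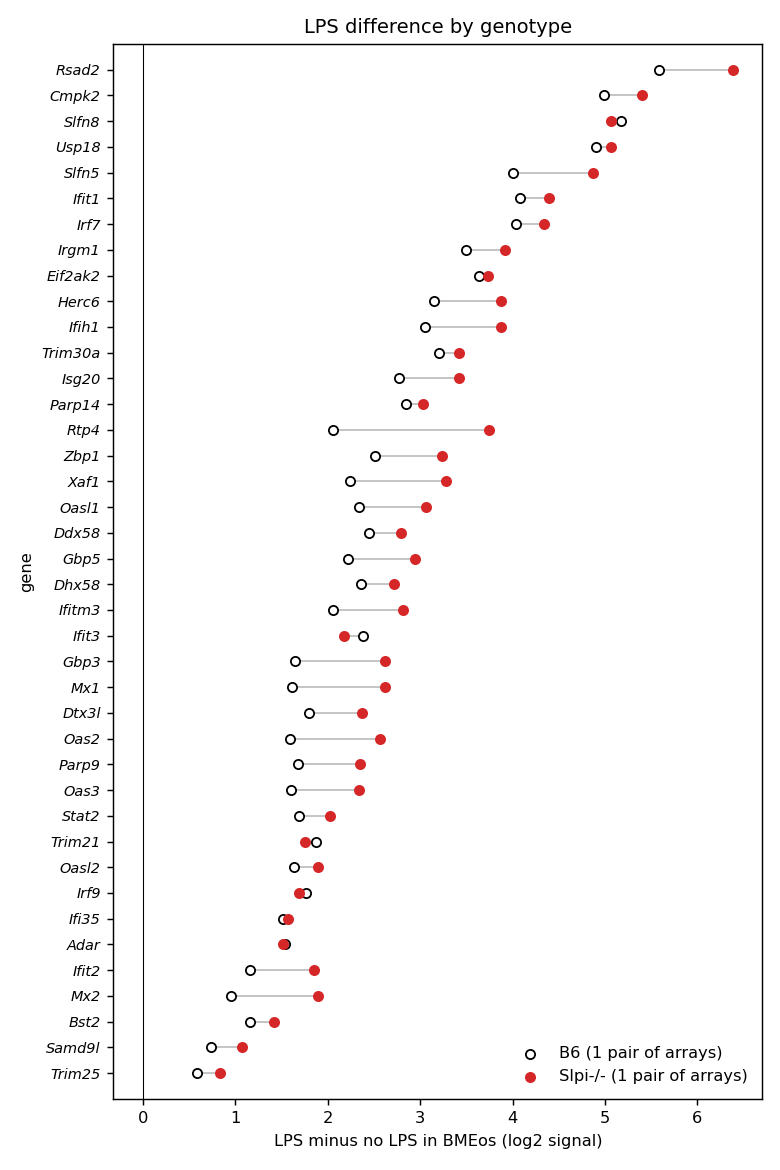
LPS minus no LPS in BMEos, in log2 signal, for each of the 40 genes in B6 (open points) and Slpi-/- cells (filled points), each from 1 pair of arrays. All points lie above 0, from 0.58 for Trim25 in B6 to 6.39 for Rsad2 in Slpi-/- BMEos, and the filled point lies to the right for 35 genes. Genes below background without LPS, Rsad2 among them, are plotted at their signals.

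In BMBs and mast cells the genotype differences were centred near 0. In unstimulated BMBs, 26 of 40 genes were higher in Slpi-/- cells, with a median of 0.08, and of 30 above background 3 were at least 0.5 higher and 0 lower (all genes, 1.64% and 2.91%). The 3 were Mx1 (5.16 in B6 and 5.78 in Slpi-/- cells), Usp18 (6.91 and 7.50) and Ifih1 (5.36 and 5.93). Mx1 and Ifih1 were below background in B6 cells and were counted through the Slpi-/- array only, where they were higher. With IgE, 21 of 40 were higher, with a median of 0.02, and of 27 above background Ifitm3 (8.41 and 9.20) was at least 0.5 higher and 0 lower (all genes, 2.06% and 1.5%). Mx1 had the opposite order there, at 4.99 and 4.29, both below background. In mast cells, 18 of 40 were higher, with a median of -0.02, and of 27 above background 0 were at least 0.5 higher and 2 lower (all genes, 0.717% and 0.92%). They were Ifitm3 (8.81 in B6 and 7.94 in Slpi-/- cells) and Zbp1 (6.21 and 5.65). Zbp1 was just below background in the Slpi-/- cells and was counted through the B6 array only. Each of these differences rests on 1 pair of arrays.

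In limma, 0 of 38 genes passed for genotype in BMBs (all genes, 0% higher and 0.00737% lower), and 2 had an unadjusted p under 0.05 (all genes, 2.95% higher and 3.8% lower), Usp18 (0.42 ± 0.12) and Ifit1 (0.35 ± 0.12), both higher. In both BMB pairs, 13 of 40 genes were higher in Slpi-/- cells (all genes, 25.3%) and 6 lower (25.4%). Over all 5 settings, 0 of 38 passed (all genes, 0% higher and 0% lower), and 9 had an unadjusted p under 0.05 (all genes, 2.37% higher and 2.95% lower), all higher and led by Usp18 (0.36 ± 0.08). The methods' t-test called 0 in both comparisons, but on the 2 BMB pairs it could hardly pass any gene after adjustment. Cmpk2, Usp18, Oasl2, Irgm1 and Slfn8 were higher in Slpi-/- cells in all 5 pairs (5 of 40, against 3.06% of all named genes), and 0 genes were lower in all 5 (3.64%). Some of these differences were very small, such as 0.01 for Cmpk2 in unstimulated BMBs and 0.03 for Irgm1 in unstimulated BMEos. Some signals were below background on both arrays, among them Cmpk2 in mast cells, Oasl2 in BMBs and Slfn8 in unstimulated BMEos. The test of the genotype difference in BMEos against that in BMBs called 0 of 38 in limma, and for 9 the unadjusted p was below 0.05, all with the higher difference in BMEos (all genes, 3.35% higher and 2.73% lower).

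Few interferon-induced genes passed the test for IgE and antigen in BMBs. Slfn8 and Trim30a fell, and 0 genes rose, of 38 tested in limma (all genes, 12.2% higher and 10.6% lower). By unadjusted p under 0.05, 2 were higher and 5 lower (all genes, 17.7% and 17.1%). Slfn8 read 5.51 in B6 and 5.85 in Slpi-/- BMBs without IgE, just under and just over the background, and 4.61 and 4.71 with IgE, below it (at least 1.05-fold lower, adjusted p = 0.00197, limma). Trim30a read 8.70 and 8.92 without and 8.19 and 7.94 with IgE (1.68-fold lower, -0.74 ± 0.14, adjusted p = 0.0119). Without the Slpi-/- BMB pair, Trim30a did not pass (adjusted p = 0.105, limma). Both rose with LPS in BMEos, as did all 38 tested genes. Their promoters were printed above because they hold the ISRE core, so that the motif marks nothing particular to these 2 genes.

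The median IgE difference of the 40 genes was -0.15 in B6 and -0.19 in Slpi-/- BMBs. In both genotypes 7 genes were higher with IgE and 22 lower (all named genes, 29.1% and 37.2%). Irf7 read 7.03 and 7.0 without and 6.51 and 6.80 with IgE (-0.36 ± 0.13) and did not pass. Rsad2, at 5.51 and 5.58 without and 5.31 and 5.46 with IgE, stayed below background. Over the same arrays, Tnf rose with IgE, from 7.31 and 6.85 to 9.15 and 9.18 (adjusted p = 0.00078, limma). Of 8 tested monocyte and macrophage markers, 1 passed as higher with IgE and 2 as lower, and of 9 neutrophil markers 0 passed as higher and 1, Ly6g, as lower. The monocyte gene Ccr2 read 9.52 and 9.80 without and 6.90 and 7.95 with IgE. The mean of 9 neutrophil markers went from 6.98 and 6.11 to 5.73 and 5.78. Of the 9, 6 in B6 and 4 in Slpi-/- BMBs were above background without IgE, and 3 and 2 with it. Ly6g was the highest of them, at 12.38 and 12.68 without and 10.95 and 11.15 with IgE. The granulocyte precursor gene Mpo read 8.84 in unstimulated B6 BMBs and at most 6.43 on the other arrays. The cells had been selected as DX5+ before stimulation, and the part of these markers in the fall of Slfn8 and Trim30a was not tested.

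Without a stimulus, most of the measurable interferon-induced genes differed between at least 2 of the 3 cell types. On the 6 unstimulated arrays 31 of the 40 genes were above background at least once and were tested, and 27 of the 31 passed in limma between at least 2 cell types (87.1%, against 62.5% of the 12998 genes tested). The highest mean signal was in BMBs for 12 of the 31 (38.7%, against 27.5% of all tested genes), in BMEos for 12 (38.7%, against 33.4%) and in mast cells for 7 (22.6%, against 39.2%). For 22 of them both arrays of that cell type lay above the other 4 (71%, against 64.6%). Mx1 was above background in BMBs only and so could pass only as higher there.

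Oasl2 was among the genes higher, and Ifitm3 among those lower, in BMEos than in BMBs. In limma, 8 of 31 genes were higher and 14 lower in BMEos than in BMBs (all genes, 18.6% and 21.2% of 12998). Oasl2 read 7.95 in B6 and 8.29 in Slpi-/- BMEos and 5.32 and 5.43 in BMBs, where it was below background (at least 5.62-fold). Samd9l (1.53 ± 0.10) and Trim25 (1.24 ± 0.10) were higher too, followed by Ifi35, Dhx58, Parp14, Stat2 and Dtx3l. Ifitm3 was lower in BMEos, at 5.58 and 5.87 against 8.56 and 8.39 in BMBs (-2.75 ± 0.24). Herc6 (at least 2.87-fold) and Slfn8 (at least 1.01-fold), both below background in BMEos, were lower as well. The other genes lower in BMEos were Trim30a (-1.51), Irgm1 (-1.04), Xaf1, Mx1, Isg20, Zbp1, Irf7, Trim21, Oas3, Bst2 and Eif2ak2. Without the unstimulated B6 BMB array, 14 of the 31 genes passed in place of 22.

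Against mast cells, BMEos were higher in 15 genes and lower in 10 (all genes, 24.3% and 26.8%). The higher genes included Samd9l, at 9.72 in B6 and 9.64 in Slpi-/- BMEos and 7.87 and 7.78 in mast cells (1.86 ± 0.10). Oasl2 (1.55), Trim25 (1.49), Ddx58 (0.68) and Stat2 (0.64) were higher as well, as was Dhx58, which was below background in mast cells (at least 2.28-fold). Slfn8 was lower, at 3.16 and 4.07 in BMEos, below background, and 6.85 and 6.92 in mast cells, its highest level without LPS. Ifitm3, Herc6, Irgm1, Trim30a, Usp18, Oasl1, Xaf1, Bst2 and Eif2ak2 were the other genes lower in BMEos.

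BMBs were higher than mast cells in 12 genes and lower in 5 (all genes, 18.8% and 17.9%). Zbp1 read 7.89 in B6 and 7.86 in Slpi-/- BMBs and 6.21 and 5.65 in mast cells (1.95 ± 0.19). Isg20 (1.82), Irf7 (1.24) and Dhx58 (at least 1.45-fold, below background in mast cells) were higher as well, with Mx1, Oas3, Ddx58, Adar, Xaf1, Cmpk2, Samd9l and Stat2. Slfn8 (-1.21), Oasl2 (at least 1.92-fold, below background in BMBs), Usp18 (-1.0), Oasl1 (-0.58) and Irgm1 (-0.57) were higher in mast cells. Without the Slpi-/- mast cell array, 11 of 31 genes passed in place of 17. The mean of 10 monocyte and macrophage markers, among them Adgre1, was 7.68 and 7.54 in BMBs and 5.31 and 5.26 in mast cells. In BMEos it was 6.77 and 6.92. The part of these markers in the differences between cell types was not tested.

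**Figure D4:**
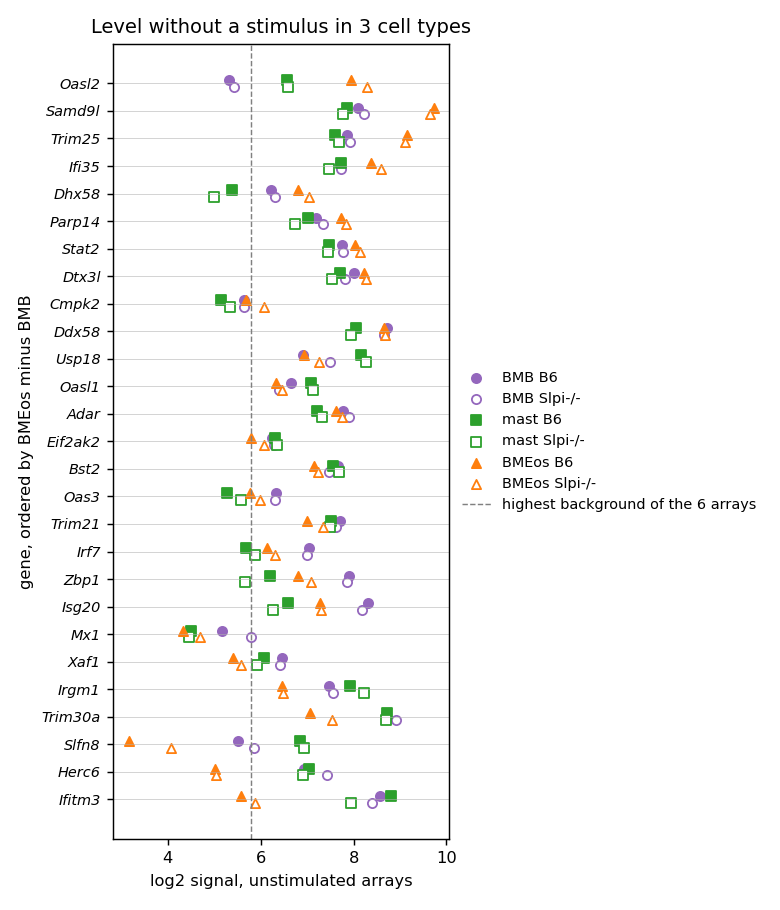
Log2 signal on the 6 unstimulated arrays for the 27 genes that differed between 2 cell types in limma, ordered by BMEos minus BMBs, with filled points for B6 and open points for Slpi-/- cells. The dashed line is the highest background of the 6 arrays. Oasl2 at the top and Ifitm3 at the bottom show the widest separation of the plotted BMEos signals from those of BMBs, and signals left of the dashed line give no level.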

How the data were processed

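RNA was read on 10 Affymetrix Mouse Gene 1.0 ST arrays. The authors deposited log2 signals, normalized by RMA in the R package affy, and no scanner files were used here. Of 34760 probe sets, 21640 carry 1 gene symbol in the platform annotation. The probe set with the highest mean stood for a gene, which gave 19937 named genes. Genes above background on at least 1 array of a fit were tested.

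limma 3.58.1 in R 4.3.3 was fitted to all 10 arrays (each combination of cell type and genotype had its own mean, and each stimulus 1 term), to the 5 pairs for the genotype common to them, and to the 6 unstimulated arrays for cell types. A fit with a genotype by LPS term was added after the data were seen. The script was tested on simulated data. P-values were adjusted over all genes tested (Benjamini-Hochberg, threshold 0.05). Single pairs of arrays had no test, and a difference of 0.5 was counted. With 1 array per condition, the number of arrays limits the precision. Alternatives were other scalings, filters, variance models, the methods' t-test and leaving out arrays. The genes and lists were chosen with earlier results of these data known. Every gene of the list is named, in full where it passed or was among the 5 largest or smallest differences.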

Additional observations from a re-analysis of the deposited data

Results flagged for a closer look

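The LPS difference in BMEos and the IgE difference in BMBs differed in limma for 38 of the 38 tested interferon-induced genes, the LPS difference being the higher. Over all genes, 9.71% passed with the LPS difference higher and 13.3% with it lower. Of the 38, 7 were tested through the LPS arrays only. The cell type, the stimulus and its duration all differ between these comparisons. By Xist and Eif2s3y, BMEos with and without LPS were also not of the same sex, whereas the BMB arrays matched. For 6 genes (Irf9, Xaf1, Ddx58, Zbp1, Dtx3l and Bst2), Slpi-/- was higher than B6 in both BMEos pairs and lower in both BMB pairs (15% of the 40, against 6.58% of all named genes), some by very little, and the difference between BMEos and BMBs was not tested for this pattern as such. In limma, the genotype difference in BMEos minus that in BMBs passed for 0 of the 38 genes. Some listed genes share a probe set with another gene and stand outside the comparisons above. On these probe sets the mean log2 LPS difference in BMEos was 3.07 for Olfr56 and Ifi47, 3.36 for Irgm2 and Igtp, 2.14 for Isg15 and Gm9706, and 3.30 for Gbp2 and Gbp2b. With LPS they were higher in Slpi-/- than in B6 BMEos by 0.77, 0.42, 0.57 and 1.07 in the same order, in 1 pair of arrays.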

How the results depend on the processing

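Under the methods' t-test with Benjamini-Hochberg adjustment, 0 genes passed in place of 38 for LPS, 2 for IgE, 17 between BMBs and mast cells, 25 between BMEos and mast cells and 22 between BMEos and BMBs. With 2 pairs that test has 1 degree of freedom and could hardly pass any gene after the adjustment, so these counts decide nothing. When arrays or pairs were left out in turn, 37 to 38 genes passed for LPS, 1 to 3 for IgE, 11 to 15 between BMBs and mast cells, 19 to 24 between BMEos and mast cells and 14 to 20 between BMEos and BMBs. The lowest IgE count came without the Slpi-/- BMB pair. All other counts stayed within 1.5 times of those reported, and no result changed sign under the alternatives run. With arrays centred on their medians or quantile normalized, all 40 genes still were higher with LPS in Slpi-/- than in B6 BMEos (at least 0.5 higher, 26 and 24 genes), and the LPS difference was larger in Slpi-/- cells for 36 and 35. No paired analysis was possible because each condition had 1 array and the labels number no replicates beyond it, apart from the pairing of genotypes and stimuli that the fits already hold. A signal below background limits the fold of 11 genes with LPS to a lower bound. No array repeats a condition, so the genotype difference with LPS has no error of its own, and the fit with a genotype by LPS term, chosen after seeing the data, took its error from BMBs and called 0 of 38 genes.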

Other observations

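A further list of 50 interferon-induced genes, of which 40 were measured, was read in the same BMEos arrays. With LPS, 36 of these 40 genes had a higher signal in Slpi-/- than in B6 BMEos and 4 a lower one (Iigp1, Ifitm2, Ifitm1 and Slfn4), with a median log2 difference of 0.40. Of all named genes, 48.5% were higher. Iigp1 and Slfn4 were below background on every array. The widest differences were 0.96 for Gbp4 and 0.80 for Gbp9, both GTPase genes, 0.89 for Epsti1, 0.75 for the helicase gene Ddx60, and 0.71 for the chemokine gene Cxcl10 and the RNA-sensing enzyme gene Oas1a. Without LPS, Slpi-/- exceeded B6 for 28 of the 40 (all named genes, 51.3%), and the median difference was 0.07. Over both pairs, 0 of 34 tested genes passed for genotype in limma (all genes, 0% higher and 0.00737% lower). By an unadjusted p under 0.05, 11 were higher and 1 lower (all genes, 2.65% and 3.13%). In BMBs, 0 of 34 passed, with 2 higher and 0 lower by unadjusted p (all genes, 2.95% and 3.8%).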
